A study of Mus musculus with 14 samples.

Results

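The genes described here are 10 genes of fatty acid uptake and lipoprotein lipid handling: Cd36, Lpl, Lipc, Lipg, Vldlr, Slc27a2, Fabp2, Fabp4, Fabp5 and Fabp7. They were taken by gene symbol, through the RefSeq accession of each array probe, and are 10 of the 19751 genes with a named probe on the array. Each had 1 probe except Lpl and Vldlr, which had 2, giving 12 probes; the probe with the brighter signal stands for the gene, and the dimmer probe is given beside it.

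The samples were livers of crl:CD1 (CD-1) mice, an outbred stock, with no treatment and no engineered allele in any group. Groups were males at 3, 4 and 8 wk (M3, M4, M8) and females at the same ages (F3, F4, F8), so that all groups share strain and tissue and, by their labels, differ in sex and age. Each RNA sample was a pool of 5 mice at 3 wk or 6 mice at 4 and 8 wk, with 2 independent pairs of pools for each comparison, so that the spread reported is that between pools and not between single mice. The 7 direct comparisons (males over females as M3/F3, M4/F4 and M8/F8, older over younger males as M8/M3 and M8/M4, and older over younger females as F8/F3 and F8/F4) were each hybridized on 2 two-color arrays, 1 for each pair of pools, with the dyes swapped. The labels do not name the pools: that arrays with the same replicate number carry the same pools, here called pool 1 and pool 2 of a group, was inferred from the design and from how replicates deviated together around closed loops of comparisons (r = 0.88), and every level by pool rests on it. In a bulk liver sample, fewer cells of a type and less RNA per cell of that type cannot be told apart.

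Fatty acids reach the liver cell as free fatty acids bound to albumin or as triglyceride carried in lipoproteins. Lipases at the vessel wall release fatty acids from the lipoprotein core, receptors such as the VLDL receptor bind the particles or their remnants, and membrane proteins such as CD36 and the fatty acid transport proteins assist uptake. Inside the cell, small fatty acid binding proteins (FABPs) carry the lipid to sites of oxidation, esterification or signaling. Liver lipoprotein lipase is high in suckling rodents and low in the adult.

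Sequence upstream of the gene is shown for Cd36 and Vldlr, both lower in 8 wk males than in 8 wk females, and for Slc27a2, the member that rose with age in males. These are the 250 bases before each annotated start, 5′ to 3′ on the strand of the gene, from RefSeq on GRCm38.p6. Matches in capitals are AGGTCA, the half-site that many nuclear receptors bind, and CCAAT, each searched on both strands, so that a match on the other strand reads TGACCT or ATTGG.
Cd36, chr5:17835897-17836146, minus strand: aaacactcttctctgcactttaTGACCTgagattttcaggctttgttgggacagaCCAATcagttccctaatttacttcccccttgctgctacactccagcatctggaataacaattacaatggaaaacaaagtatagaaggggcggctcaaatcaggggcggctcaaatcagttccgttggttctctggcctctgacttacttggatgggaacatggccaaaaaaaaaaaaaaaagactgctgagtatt
Vldlr, upstream start, chr19:27216234-27216483, plus strand: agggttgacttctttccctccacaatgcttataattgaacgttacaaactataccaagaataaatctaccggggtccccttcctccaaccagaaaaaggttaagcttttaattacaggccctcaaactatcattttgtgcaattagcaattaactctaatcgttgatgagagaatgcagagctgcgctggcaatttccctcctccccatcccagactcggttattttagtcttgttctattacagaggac
Vldlr, downstream start, chr19:27216770-27217019, plus strand: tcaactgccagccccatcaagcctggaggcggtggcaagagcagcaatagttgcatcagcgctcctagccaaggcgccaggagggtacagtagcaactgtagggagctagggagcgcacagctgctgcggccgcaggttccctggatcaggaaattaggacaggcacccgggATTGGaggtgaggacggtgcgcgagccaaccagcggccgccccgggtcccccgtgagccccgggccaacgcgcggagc
Slc27a2, chr2:126552774-126553023, plus strand: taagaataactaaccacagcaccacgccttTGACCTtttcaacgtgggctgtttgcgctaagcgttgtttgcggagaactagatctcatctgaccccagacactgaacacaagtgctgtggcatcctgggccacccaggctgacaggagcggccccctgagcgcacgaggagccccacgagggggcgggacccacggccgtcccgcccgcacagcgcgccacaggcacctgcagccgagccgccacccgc

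RefSeq windows were at hand for 6 of the 10 genes, as 8 windows: Cd36, Fabp2, Fabp7, Slc27a2, 2 for Lipc and 2 for Vldlr. AGGTCA was found in 4 of the 8 windows (Cd36, Fabp7, Slc27a2 and 1 window of Lipc) and in 14.0% of all 32851 promoter windows of the same length. In Cd36 it lay 228 to 223 bases before the start and in Slc27a2 220 to 215 bases before it, both on the opposite strand. CCAAT was found in 6 of the 8 windows and in 33.8% of all windows, at 195 to 191 bases before the start of Cd36 and 78 to 74 before the downstream start of Vldlr. The STAT5 site TTCNNNGAA was in none of the 8 windows and in 7.02% of all windows, and the direct repeat 1 of the half-site, to which PPAR and RXR bind, was in none of the 8 and in 0.338% of all. These counts describe letters in short windows only, and none of the binding was measured.

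Before the genes are described, the arrays themselves stood as follows. Between 55.2% and 77.2% of the spots in a channel were well above background, with a median of 66.5%, and no spot was saturated. The Y-linked genes Ddx3y and Uty were higher in the male pool and Xist in the female pool on all 6 arrays that set males against females, on which Uty was not well above background in any female channel and Xist in none of the male channels at 4 and 8 wk, so that the direction is given without a size. All 8 hepatocyte markers tested, among them Alb and Apob, were well above background in every group.

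Of the 9 genes that could be tested between the sexes at every age, 3 were called at 8 wk, 1 at 3 wk and 1 at 4 wk, and Lipg was tested and called at 8 wk alone. To be called, a gene needed an adjusted p below 0.05 (limma with Benjamini-Hochberg adjustment), a ratio beyond 1.5-fold and a probe well above background on both arrays in at least 1 of the groups compared. In M8/F8, Lpl was higher in males and Cd36, Vldlr and Lipg were lower, 4 of 10 genes tested, where 6.40% of all genes tested were called. In M3/F3 and M4/F4, Fabp5 alone was called, higher in males, 1 of 9 genes tested in each, where 0.517% and 1.58% of all genes tested were called. Lipg was left out of the 3 and 4 wk comparisons because no group passed the background filter there, and at 8 wk it passed through F8, the group where it was higher.

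Across age, 2 genes fell in both sexes and 1 rose. In M8/M3, Lpl and Fabp5 fell and Slc27a2 rose, 3 of 10 genes, where 17.8% of all genes tested were called. Lpl and Fabp5 were also the genes called in M8/M4, F8/F3 and F8/F4, 2 of 10 genes each time and lower at 8 wk each time, where 10.8%, 11.7% and 6.00% of all genes tested were called. The 10 genes had a median log2 ratio of -0.31 for M8/M3 against 0.23 for F8/F3, beside 0.01 and 0.02 for all genes tested. The 2 young ages were compared through the 8 wk pools that both share: no member was called in M4/M3 or F4/F3, where 0.295% and 0.0945% of all genes tested were called. At an unadjusted limma p below 0.05 and with no fold threshold, 3 of 10 members passed in each of these (Lpl, Slc27a2 and Fabp5 in M4/M3, and Lpl, Fabp5 and Fabp7 in F4/F3), beside 17.4% and 14.4% of all genes tested, while error-weighted averages called none. Those averages weigh each array by the deposited technical error of its ratio and call at an unadjusted p below 1e-04, so they leave out the spread between pools. The fit of 6 group means called Lpl and Fabp5 in M4/M3 (limma adjusted p = 0.011 and 0.017) and Fabp5 in F4/F3 (0.024). That fit takes the arrays of a pool as independent measures of the group mean, so its p-values may be too small. The variance between pools was estimated at 7.95 times that between arrays.

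**Figure D1:**
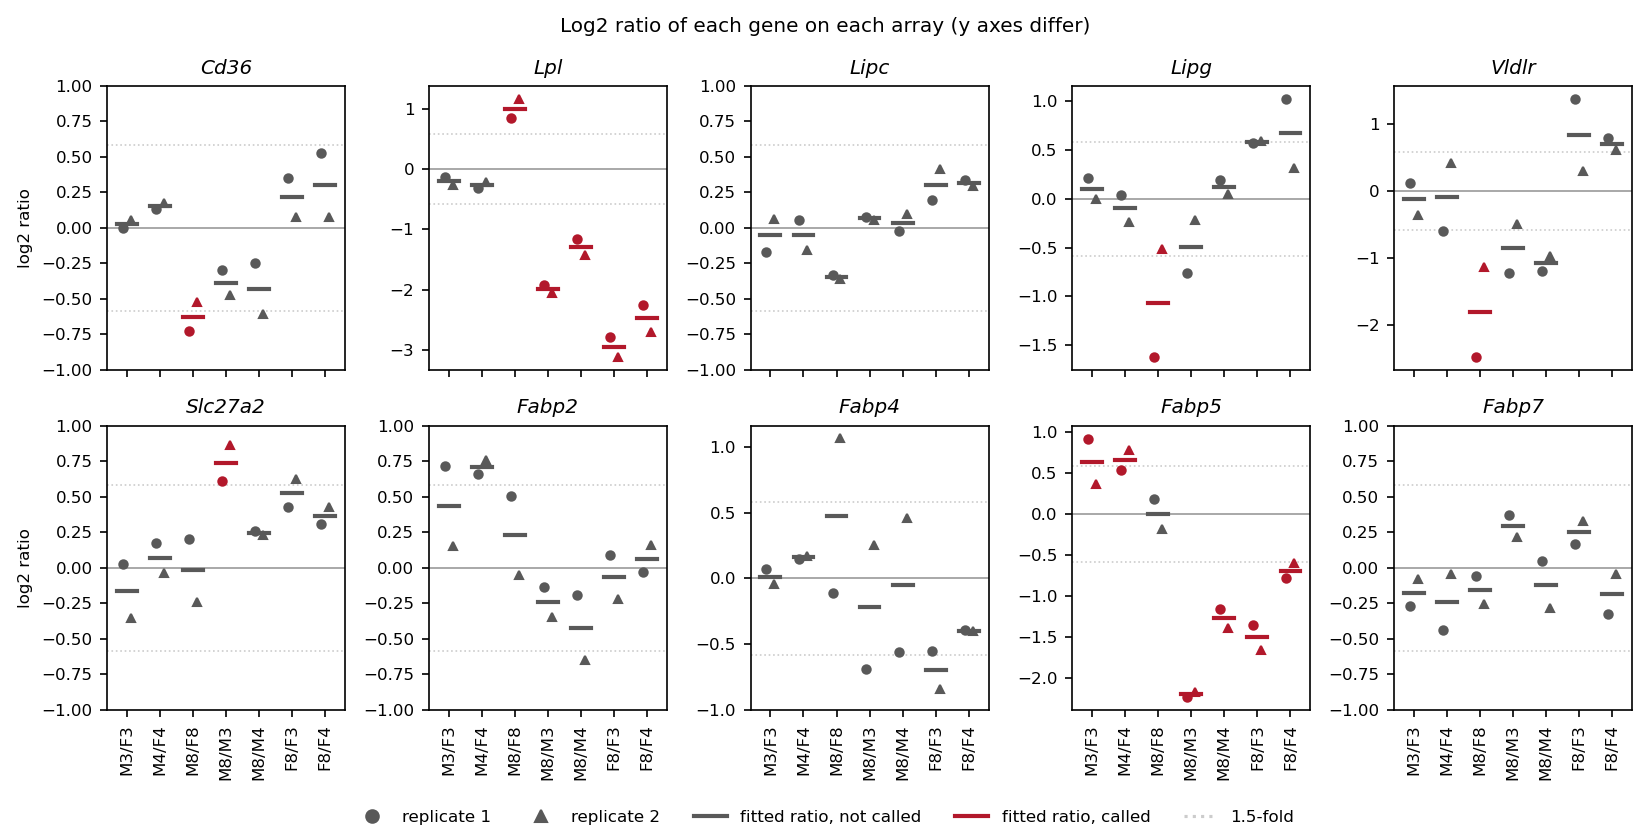
Log2 ratio (y axis) of each of the 10 genes in the 7 comparisons (x axis), for the brighter probe; circles are replicate 1, triangles replicate 2, bars the fitted ratio, red marks a called ratio and dotted lines 1.5-fold. Lpl and Fabp5 lie below 0 in all 4 age comparisons, and Cd36 and Vldlr lie below 0 in M8/F8 on both arrays.

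Lpl encodes lipoprotein lipase, which hydrolyzes the triglyceride of chylomicrons and VLDL. Its log2 normalized intensity was 15.42 and 15.44 in the 2 M3 pools, 15.58 and 15.67 in F3, 14.71 and 14.84 in M4, and 15.04 and 15.14 in F4. At 8 wk it was 13.53 and 13.52 in the M8 pools and 12.78 and 12.54 in the F8 pools. The groups thus ran F3, M3, F4, M4, M8, F8 from high to low, and no pool of one group overlapped with the next group in that order. Both sexes were lower at 8 wk than at either younger age, and the female pools, above the male pools at 3 and 4 wk, were below them at 8 wk.

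On the direct arrays, the log2 ratio of Lpl in F8/F3 was -2.79 on replicate 1 and -3.12 on replicate 2, a fitted ratio of -2.95 ± 0.09 (SE, n = 2 arrays), or 7.74-fold lower at 8 wk (adjusted p = 5.4e-05, limma with Benjamini-Hochberg adjustment). In M8/M3 it was -1.93 and -2.06, a fitted ratio of -1.99 ± 0.09 (SE, n = 2) and 3.98-fold lower (limma adjusted p = 0.00012). The male decrease was the smaller, and this was tested directly. The difference between the male and the female change from 3 to 8 wk was 0.86 on replicate 1 and 1.06 on replicate 2, or 0.96 ± 0.13 (SE, n = 2), with an adjusted p of 0.013 (limma).

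From 4 to 8 wk the same held for Lpl. The log2 ratio was -2.25 and -2.70 in F8/F4 (SD 0.32) and -1.16 and -1.42 in M8/M4 (SD 0.19). The fitted ratios were -2.48 ± 0.09 and -1.29 ± 0.09 (SE from the fit to all arrays, n = 2 arrays each). These are 5.56-fold and 2.45-fold decreases (limma adjusted p = 7.7e-05 and 0.00041), and the difference between the sexes in this change was 1.18 ± 0.13 (limma adjusted p = 0.013). These differences between the sexes were called for 2 members in all, Lpl and Cd36, over 3 to 8 wk and again over 4 to 8 wk, where 3.36% and 1.31% of all genes tested were called.

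Between the sexes, the Lpl ratio in M8/F8 was 0.84 and 1.16, fitted at 1.00 ± 0.09 (SE, n = 2) and 2.00-fold higher in males (limma adjusted p = 0.0010). At 3 and 4 wk the fitted ratios were -0.20 and -0.27, and neither passed the test (limma adjusted p = 0.24 and 0.11). The dimmer Lpl probe moved the same way with smaller ratios: -2.39 in F8/F3, -1.77 in M8/M3 and 0.88 in M8/F8, all called. Its difference between the sexes was called from 4 to 8 wk, at 0.89, and missed the threshold from 3 to 8 wk, at 0.62 (limma adjusted p = 0.031 and 0.054). When arrays that share a pool were treated as correlated, the Lpl difference between the sexes kept its size but its limma adjusted p became 0.078 from 3 to 8 wk and 0.12 from 4 to 8 wk. The first was also lost without either replicate of M8/M3 or of F8/F3 (limma adjusted p between 0.058 and 0.076), and the second without either replicate of M8/M4 or replicate 2 of F8/F4 (0.053 to 0.056).

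**Figure D2:**
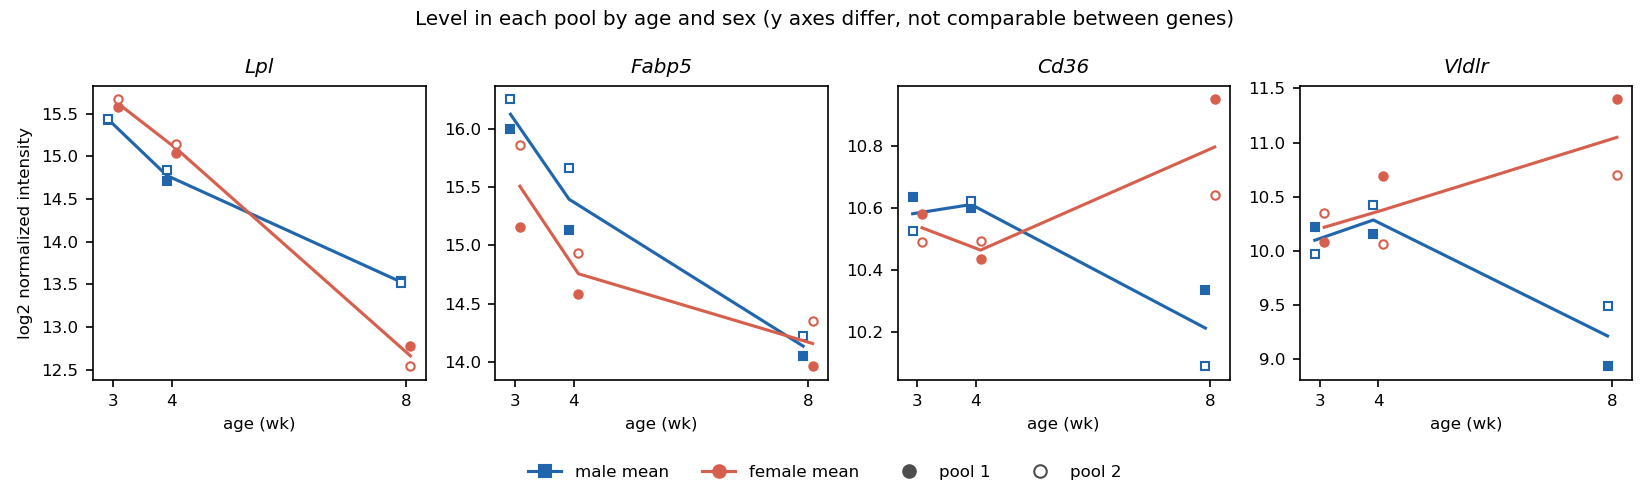
Log2 normalized intensity (y axis) of Lpl, Fabp5, Cd36 and Vldlr at 3, 4 and 8 wk (x axis); filled symbols are pool 1, open symbols pool 2, blue squares males, red circles females, and lines join group means. Lpl and Fabp5 fall to 8 wk in both sexes, and the male and female pools of Cd36 and Vldlr do not overlap at 8 wk.

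Lipc encodes hepatic lipase, the enzyme that liver secretes to act on lipoprotein remnants and HDL. The log2 ratio in M8/F8 was -0.33 on replicate 1 and -0.36 on replicate 2, fitted at -0.35 ± 0.08 (SE, n = 2). Its adjusted p was 0.027 (limma), but the 1.27-fold difference was under the 1.5-fold threshold, so Lipc was not called. In females the fitted ratio was 0.31 in F8/F3 and 0.32 in F8/F4 (limma adjusted p = 0.044 and 0.039), both also under 1.5-fold, and in males it was 0.07 and 0.04. The 2 F8 pools, at 12.08 and 11.89, were above both pools of each other group, while the remaining 5 groups overlapped with their neighbors in the order of levels.

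Lipg encodes endothelial lipase, which acts mainly on HDL phospholipid, and its probe was near background. It was well above background in all 6 channels of F8 but in 3 of 6 channels of M8, 3 of 4 in each of M3, F3 and M4, and 2 of 4 in F4. The M8/F8 log2 ratio was -1.62 and -0.51, fitted at -1.07 ± 0.27 (SE, n = 2; limma adjusted p = 0.045). M8 was not well above background on either of the 2 arrays of this comparison, so the ratio gives no size. The M8 signal was replaced by the lowest signal that passed the background filter, or kept where higher. F8 was then 1.81-fold higher on the mean of both arrays. On replicate 1 the log2 signal was 4.96 in F8 against 3.34, the probe's own in M8. On replicate 2 it was 4.79 against 4.69, the lowest that passed, so the 1.81-fold rested on replicate 1. There the M8 signal lay above the lowest that passed, 3.17, and still did not pass, so 1.81-fold is not a firm lower limit. The log2 ratio was -0.40 with normexp and loess and -0.50 without replicate 1 of M8/F8, both smaller in size than the -1.07 as reported. The call was lost under both, with a replicate block (limma adjusted p = 0.067), with the slide as a block (0.078), with arrays that share a pool treated as correlated (0.29), and with 13 of the 14 arrays left out in turn.

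Vldlr encodes the VLDL receptor, which binds triglyceride-rich particles and is low in normal mouse liver compared with muscle and fat. Its log2 level was 8.94 and 9.49 in the M8 pools and 11.40 and 10.697 in the F8 pools, with the other 4 groups between 9.98 and 10.69. The M8 pools were thus the lowest and the F8 pools the highest, with no overlap with any other group. The M8/F8 log2 ratio was -2.47 on replicate 1 and -1.13 on replicate 2, fitted at -1.80 ± 0.39 (SE, n = 2) and 3.49-fold lower in males (limma adjusted p = 0.024). The dimmer probe gave -2.22 and -1.21, fitted at -1.71 ± 0.34 (limma adjusted p = 0.017).

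The age ratios of Vldlr differed in sign between the sexes and did not pass the limma test. The log2 ratio was -1.21 and -0.48 in M8/M3 and -1.19 and -0.97 in M8/M4, while F8/F3 gave 1.38 and 0.30 and F8/F4 gave 0.80 and 0.61. All 4 male arrays were below 0 and all 4 female arrays above it. The difference between the sexes was -1.69 ± 0.55 from 3 to 8 wk and -1.79 ± 0.55 from 4 to 8 wk (SE, n = 2), with adjusted p of 0.16 and 0.22 (limma), and 95% intervals from -2.99 to -0.39 and from -3.09 to -0.48. Both were called when the 14 arrays were fitted as 6 group means (limma adjusted p = 0.0071 and 0.011), as was M8/M4 (0.028). That fit reuses each pool as if its arrays were independent, so these p-values may be too small. Error-weighted averages called Vldlr in all 4 age comparisons and in both differences, but on technical error alone, while the replicates of F8/F3 and M8/M3 stood far apart. Without replicate 1 of M8/F8, the M8/F8 ratio was -1.20 and no longer called (limma adjusted p = 0.22).

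Cd36 encodes a scavenger receptor that binds long-chain fatty acids and oxidized lipoproteins, on macrophages, endothelium, muscle and fat as well as on hepatocytes. Its log2 level was 10.33 and 10.09 in the M8 pools and 10.95 and 10.64 in the F8 pools, with the other 8 pools between 10.43 and 10.64. The F8 pools were the highest, pool 2 by a narrow margin, and the M8 pools the lowest. The M8/F8 log2 ratio was -0.73 and -0.53, fitted at -0.63 ± 0.07 (SE, n = 2) and 1.54-fold lower in males (limma adjusted p = 0.0024), whereas the fitted ratio was 0.03 at 3 wk and 0.15 at 4 wk, neither of which passed the test.

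The age ratios of Cd36 had opposite signs in the sexes. The log2 ratio was -0.30 and -0.48 in M8/M3 and -0.25 and -0.61 in M8/M4, with adjusted p of 0.015 and 0.010 (limma) but folds under 1.5. In females F8/F3 gave 0.35 and 0.08 and F8/F4 gave 0.53 and 0.08, with adjusted p of 0.11 and 0.038 (limma) and again under 1.5-fold. The difference itself was -0.60 ± 0.10 from 3 to 8 wk and -0.73 ± 0.10 from 4 to 8 wk (SE, n = 2; limma adjusted p = 0.028 for both), or 1.52-fold and 1.66-fold. It was lost with single arrays left out, from 3 to 8 wk without either replicate of M8/F8, M8/M3 or F8/F3 (limma adjusted p between 0.052 and 0.14), and from 4 to 8 wk without any of these, either replicate of M8/M4 or replicate 1 of F8/F4 (0.056 to 0.13). It was no longer called without the dye term (limma adjusted p = 0.15 and 0.14) or when arrays sharing a pool were treated as correlated (0.081 and 0.12).

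The M8/M3 arrays lay on other slides and in another scan (slides 1 and 2, scan 1) than the F8/F3 arrays (slides 3 and 4, scan 2), so the difference between the sexes from 3 to 8 wk is also one between slides and scans, whereas M8/M4 and F8/F4 shared slides 3 and 4. The same differences were therefore also taken from the male over female arrays, all of which lay on slides 1 and 2 in scan 1. M8/F8 minus M3/F3 gave 1.197 ± 0.13 for Lpl and -0.65 ± 0.10 for Cd36 (SE, n = 2; limma adjusted p = 0.0067 and 0.021), and M8/F8 minus M4/F4 gave 1.27 ± 0.13 and -0.78 ± 0.10 (0.012 and 0.026). Lpl and Cd36 were again the members called, both times, where 3.78% and 1.21% of all genes tested were called.

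Markers of macrophages and Kupffer cells, which also make Cd36, had a lower summed intensity in male than in female pools at every age. Of 7 such markers tested in M8/F8, 4 fell below females (Clec4f, Marco, Timd4 and Adgre1) and none was higher, with a median log2 ratio of -0.59. Their summed intensity was 26093 and 20667 in the M8 pools and 35416 and 32849 in the F8 pools, while at 3 and 4 wk it was 31024 to 35752 in the male pools and 38367 to 43358 in the female pools, with no overlap at any age. Their median log2 ratio was -0.28 in M3/F3 and -0.27 in M4/F4, with none and 1 of 7 called (Marco), where the ratio of Cd36 was 0.03 and 0.15. None of 7 endothelial markers was called in M8/F8, and their median was -0.09. The part of these cells in the ratios of Cd36, Lipg and Vldlr was not tested.

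**Figure D3:**
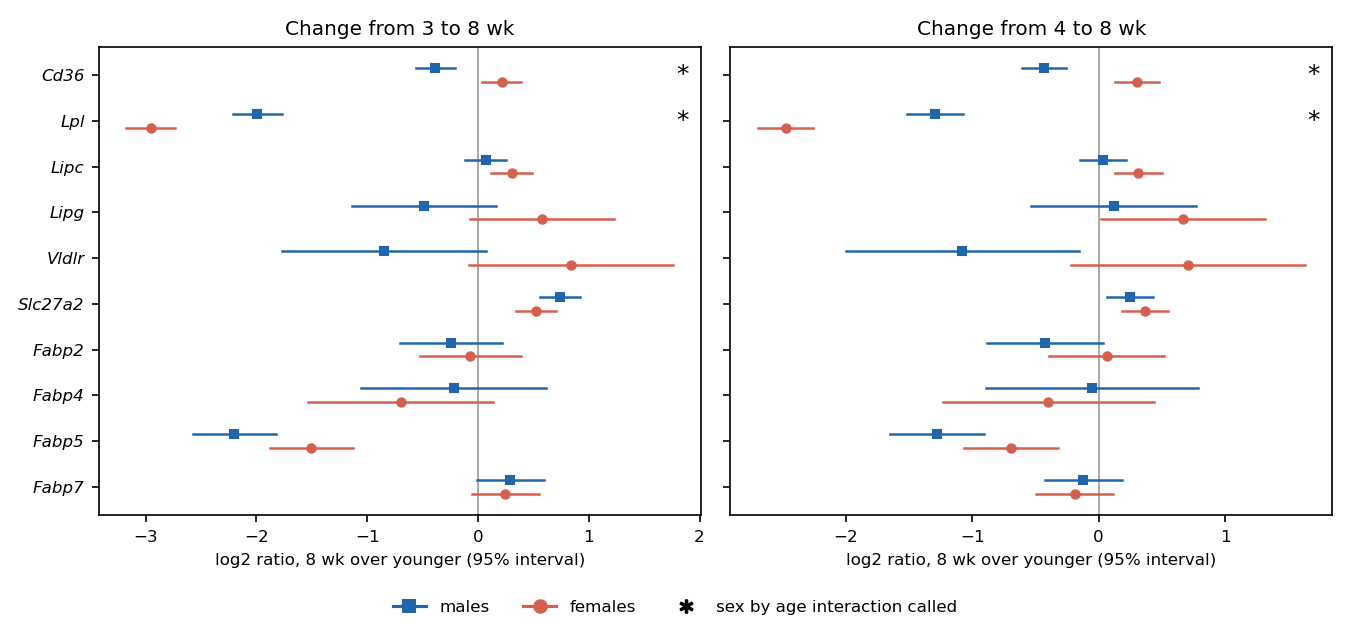
Fitted log2 ratio of 8 wk over the younger age (x axis, with 95% intervals) for the 10 genes, in males (blue squares) and females (red circles), from 3 to 8 wk at the left and from 4 to 8 wk at the right; stars mark a called difference between the sexes. Lpl decreased more in females, and Cd36 lies below 0 in males and above 0 in females.

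Slc27a2 encodes FATP2, a fatty acid transport protein that is also a very-long-chain acyl-CoA synthetase and is abundant in hepatocytes. The log2 ratio in M8/M3 was 0.61 on replicate 1 and 0.86 on replicate 2, fitted at 0.74 ± 0.08 (SE, n = 2) and 1.67-fold higher at 8 wk (limma adjusted p = 0.0015). In F8/F3 it was 0.43 and 0.63, fitted at 0.53 ± 0.08, with an adjusted p of 0.0053 (limma) but a fold of 1.44, under the threshold. With normexp and loess the F8/F3 ratio was 0.65 and was called (limma adjusted p = 0.00045). The difference between the sexes in this change was 0.21 with a 95% interval from -0.05 to 0.47, and it did not pass the test (limma adjusted p = 0.37). Between the sexes the ratio was 0.20 and -0.24 in M8/F8, of opposite sign on the 2 arrays.

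The level of Slc27a2 was highest at 8 wk in both sexes. The M8 pools were at 16.54 and 16.41 and the F8 pools at 16.39 and 16.51, overlapping with each other and above both pools of every younger group, which lay between 15.89 and 16.25. From 4 to 8 wk the fitted ratio was 0.25 in males and 0.37 in females (limma adjusted p = 0.083 and 0.021), both under 1.5-fold.

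Fabp5 encodes the epidermal fatty acid binding protein, which is also made by macrophages and by dividing and embryonic cells. Its level was 15.99 and 16.25 in M3, 15.15 and 15.86 in F3, 15.13 and 15.66 in M4 and 14.58 and 14.93 in F4. At 8 wk it was 14.05 and 14.22 in M8 and 13.97 and 14.35 in F8, and these overlapped. The 8 wk pools lay below all younger pools, and at 3 and 4 wk each male pool lay above the female pool of the same number.

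The log2 ratio of Fabp5 in M8/M3 was -2.23 and -2.17, fitted at -2.20 ± 0.16 (SE, n = 2) and 4.59-fold lower at 8 wk (limma adjusted p = 0.00041). In F8/F3 it was -1.35 and -1.66, fitted at -1.50 ± 0.16 and 2.84-fold lower (limma adjusted p = 0.0015). From 4 to 8 wk the fitted ratios were -1.28 in males and -0.69 in females, 2.42-fold and 1.62-fold lower (limma adjusted p = 0.0029 and 0.029). The F8/F4 call was lost without either replicate of M8/M3 or of F8/F4 (limma adjusted p between 0.057 and 0.20), with the slide as a block (0.057) and with arrays that share a pool treated as correlated (0.053). The difference between the sexes in the change, -0.69 from 3 to 8 wk and -0.58 from 4 to 8 wk, did not pass the test (limma adjusted p = 0.16 and 0.32). The fit of 6 group means called both, at -0.65 and -0.63 (limma adjusted p = 0.0092 and 0.018), but it takes the arrays of a pool as independent.

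In young mice the Fabp5 ratio of males over females was 0.92 and 0.36 in M3/F3 and 0.54 and 0.78 in M4/F4, fitted at 0.64 ± 0.16 and 0.66 ± 0.16 (SE, n = 2; limma adjusted p = 0.039 and 0.034). In M8/F8 it was 0.19 and -0.19, with a fitted ratio of -0.001 and a 95% interval from -0.37 to 0.37. The calls in young mice were near the threshold, and were lost with 13 of the 14 arrays left out in turn at 3 wk and 8 of the 14 at 4 wk. Without M3/F3 replicate 1 the 3 wk ratio was 0.35 (limma adjusted p = 0.33), without M4/F4 replicate 2 the 4 wk ratio was 0.49 (0.27), and neither was called with the slide as a block (0.071 and 0.065). Whether the probe also binds transcripts of near-identical copies of Fabp5 was not tested.

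Markers of proliferating cells fell with Lpl and Fabp5. All 6 markers (Mki67, Top2a, Ccnb1, Cdk1, Birc5 and Aurkb) were called lower in all 4 age comparisons, with median log2 ratios of -3.82 and -3.02 in males and -3.33 and -3.04 in females, against 3 and 4 wk in turn. Their summed intensity was 7243 to 15873 in the pools of the 3 and 4 wk groups and 905 to 1115 in the 8 wk pools. Between the sexes it was 15070 and 15873 in M3 against 9320 and 13489 in F3, with the wider gap in pool 1 as for Fabp5, and 7243 and 11025 in M4 against 7324 and 9974 in F4. The median log2 ratio of the 6 markers was 0.40 in M3/F3 and 0.21 in M4/F4, and none was called in either. Of 6 erythroid markers, 4 were called lower in each of the 4 age comparisons, among them Hba-a1, while Alas2 was called higher in both male age comparisons. Between the sexes Alas2 alone was called, higher in males in M4/F4 and M8/F8. Of 7 mesenchymal and stellate cell markers, Col1a1 and Col3a1 were called lower in all 4, and the summed intensity of the 7 was 65987 to 89507 in the younger pools and 39830 to 49323 in the 8 wk pools. Of 7 macrophage and Kupffer cell markers, Marco was called lower in all 4 age comparisons and Adgre1 in both male ones, and no other was called. Of 7 endothelial markers, Lyve1 alone was called, lower in 3 of the 4, and their medians lay between -0.20 in M8/M3 and -0.13 in F8/F4. The part of these cells in the ratios of Lpl and Fabp5, by age or by sex, was not tested.

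Fabp4 encodes the adipocyte fatty acid binding protein, which is also made by macrophages and capillary endothelium. It was called in no comparison by the limma fit to all arrays, and the 2 pools of M8 disagreed. Its level was 11.82 in M8 pool 1 and 12.92 in M8 pool 2, whereas the pools of each other group lay closer together, the farthest apart being F3 at 12.51 and 12.68. The log2 ratio of replicates 1 and 2 was -0.11 and 1.07 for M8/F8, -0.69 and 0.26 for M8/M3, and -0.56 and 0.46 for M8/M4, so that replicate 2 was the higher on all 3 arrays that held M8 pool 2. In females it was -0.55 and -0.84 in F8/F3, fitted at -0.70 ± 0.35 (SE, n = 2; limma adjusted p = 0.27), and error-weighted averages called it, at -0.69.

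Adipocyte transcripts were also higher in M8 pool 2. Of 7 adipocyte markers, Adipoq was at a log2 level of 7.02 in M8 pool 2 and between 2.05 and 5.65 in the other 11 pools. Cfd was at 9.27 there and between 0.98 and 7.36 in the others, and Retn and Plin1 were at 4.97 and 4.06, above the other pools too. Lep and Ucp1 were not well above background in any channel. The summed intensity of the 7 markers was 820 in M8 pool 2, 239 in F4 pool 1 and 21 to 69 in the other 10 pools; their part in the ratios of Fabp4, Lpl and Cd36 was not tested.

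**Figure D4:**
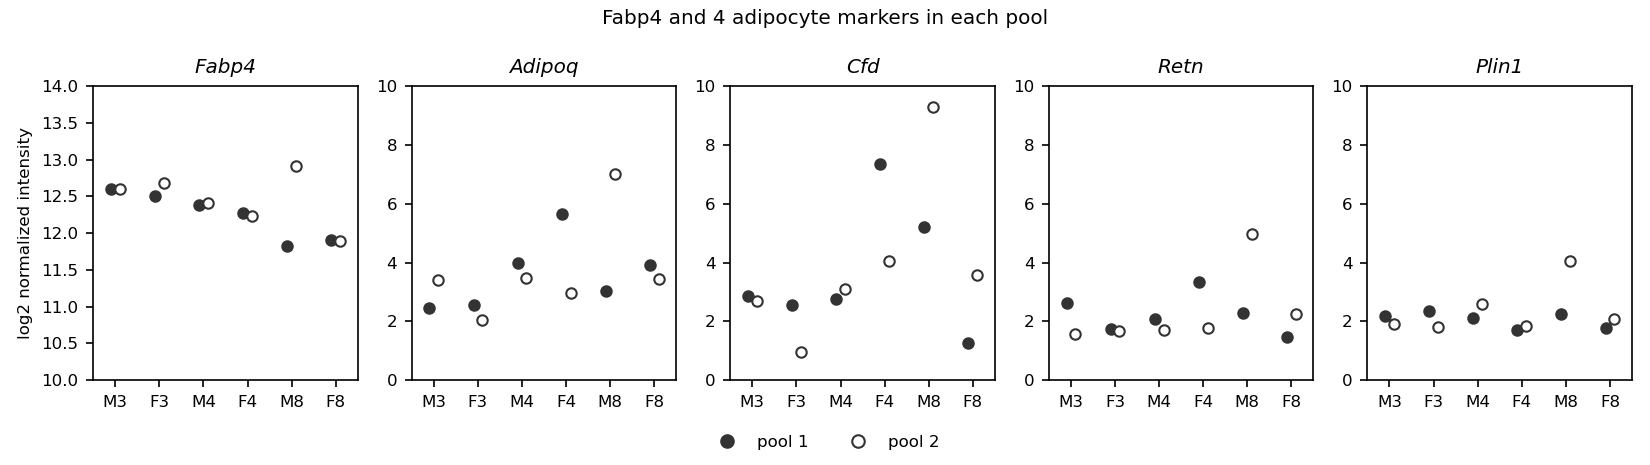
Log2 normalized intensity (y axis) of Fabp4 (axis from 10 to 14) and of the adipocyte markers Adipoq, Cfd, Retn and Plin1 (axes from 0 to 10) in each of the 12 pools, by group (x axis); filled circles are pool 1 and open circles pool 2. M8 pool 2 is the highest pool for all 5 genes, and F4 pool 1 is raised for Adipoq and Cfd.

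Without the 3 arrays that hold M8 pool 2, 11 arrays and 3 residual degrees of freedom were left. The fitted log2 ratios were then -0.62 for Cd36, -2.25 for Vldlr, -1.60 for Lipg and 0.93 for Lpl in M8/F8, with 1 array of that comparison left, in the same direction as before, and none was called (limma adjusted p between 0.087 and 0.11). Lpl and Fabp5 stayed called in M8/M3 and F8/F3, while in M8/M4 their ratios were -1.25 and -1.14 and were not called. Fabp4 was then called in F8/F3, with the same ratio of -0.70 (limma adjusted p = 0.042).

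Fabp2 encodes the intestinal fatty acid binding protein, chiefly known from enterocytes. It was higher in males on both arrays in M4/F4, with log2 ratios of 0.66 and 0.76 fitted at 0.71 ± 0.19 (SE, n = 2), and just missed the threshold (limma adjusted p = 0.054). With a replicate block the same ratio was called (limma adjusted p = 0.029). In M3/F3 it was 0.72 and 0.16, fitted at 0.44, and in M8/F8 it was 0.50 and -0.05, fitted at 0.23, and neither passed. The levels of the M4 pools, at 14.59 and 14.68, were the highest and did not overlap with those of any other group. The summed intensity of the 7 enterocyte markers, of which Mttp and Apoa4 are also made by liver, was 13377 to 15840 over all pools. Apoa4 alone had a mean intensity of 1367 in M3 and 3268 in F8, while Alpi, Lct and Fabp6 stayed at or below 15.7 in every group, so the sum does not measure them. The 15.7 was Fabp6 in M4, where it was well above background in 3 of 4 channels.

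Fabp7 encodes the brain fatty acid binding protein. It was called in no comparison, and its fitted log2 ratios in the 7 direct comparisons lay between -0.24 in M4/F4 and 0.29 in M8/M3. On each of the 6 arrays that set males against females, the ratio was below 0, from -0.44 to -0.04. None of these comparisons passed the test (limma adjusted p between 0.30 and 0.55).

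Of 56 other genes of these pathways, 55 had a named probe. They comprised lipases and their cofactors, lipoprotein receptors, acyl-CoA synthetases and transport proteins, other fatty acid binding proteins and lipid-sensing nuclear receptors. In M8/F8, 2 were higher in males and 4 lower among 45 tested, where 6.40% of all genes tested were called. In M3/F3 none of 45 was called, and in M4/F4 1 was higher and 1 lower, where the shares of all genes were 0.517% and 1.58%. Across age, M8/M3 gave 5 higher and 7 lower of 46 tested, M8/M4 gave 5 and 5 of 47, F8/F3 gave 5 and 3 of 46, and F8/F4 gave 3 and 2 of 46, beside 17.8%, 10.8%, 11.7% and 6.00% of all genes. Over those tested, medians of the log2 ratio lay between -0.09 and 0.08 in the 7 comparisons.

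The regulators and partners of the members varied in direction. Pparg, a nuclear receptor that drives lipid storage genes, was higher in males at 8 wk, with log2 ratios of 1.01 and 0.59 (limma adjusted p = 0.036), in M8/M3 at 1.27, and at 8 wk over 4 wk in both sexes, at 1.44 in males and 0.93 in females. Ppard, a relative of it, fell in all 4 age comparisons, with fitted ratios from -2.24 in F8/F3 to -1.58 in M8/M4. Ppara, the receptor that drives fatty acid oxidation, was not called: its ratio in F8/F3 was 0.58 (limma adjusted p = 0.027), just under the fold threshold. Pnpla3, which encodes a lipid droplet protein of hepatocytes, had the largest called ratio of the 55 in M8/M3, -2.98 and -3.59 (limma adjusted p = 0.0045).

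Among proteins that act on lipoprotein lipase, Angptl4, a secreted inhibitor, gave log2 ratios of 0.28 and 1.21 in M8/M3, with the higher value on the array with M8 pool 2, and was not called. Gpihbp1, which carries lipoprotein lipase to the capillary lumen, had a fitted ratio of -0.30 in F8/F3 (limma adjusted p = 0.0044), under 1.5-fold. Sdc1, a heparan sulfate proteoglycan that binds remnants in liver, was at -0.72 in M8/F8, and its difference between the sexes from 3 to 8 wk was -0.86 (limma adjusted p = 0.010). Abhd5, the activator of adipose triglyceride lipase, was at 0.75 in M8/F8 (limma adjusted p = 0.0047).

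The main hepatocyte forms of the transport and binding proteins are Slc27a5 and Fabp1. Slc27a5, or FATP5, a bile acid and fatty acyl-CoA ligase, rose in F8/F3 by a log2 ratio of 0.69 (limma adjusted p = 0.00062), and in M8/M3 it was 0.55, under 1.5-fold. Fabp1, the liver fatty acid binding protein, was higher in males in M4/F4, at 1.12 and 0.65, fitted at 0.89 (limma adjusted p = 0.0012). In M3/F3 and M8/F8 its fitted ratios were 0.42 and 0.50, both under 1.5-fold.

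For the 3 members with the largest called ratios, the genes with the most similar profile over the 14 array ratios were listed, among 3529 genes called in at least 1 comparison. They were Esco2, Gtse1 and Pgm3 for Lpl (Pearson r from 0.97 to 0.99), Mest, Mcm4 and Mtbp for Fabp5 (0.99 each), and Rasgrp1, Snai2 and Cxcr3 for Vldlr (0.94 to 0.96). The arrays share pools, so these values describe likeness of profile only. Esco2, for example, had fitted log2 ratios of -4.02 in F8/F3, -2.49 in M8/M3 and 1.68 in M8/F8, with the signs of Lpl, but 0.38 in M3/F3 and 0.16 in M4/F4, where Lpl was at -0.20 and -0.27.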

How the data were processed

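Liver RNA from CD-1 mice was hybridized by the authors to Agilent two-color arrays, 14 arrays for 7 comparisons. The scanner files came from Feature Extraction 10.7.1.1 (protocol GE2_107_Sep09), which subtracted background and normalized the dyes within each array by linear and LOWESS steps; the array design names build mm9. The deposited values used are log10 ratios of red over green, here multiplied to log2, the processed intensity of each channel, the deposited error of each ratio (a modeled score) and the spot flags. The deposited series table held the same log10 ratios, with a largest difference of 0.

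Each ratio was turned to male over female or older over younger from the dyes in GEO's labels. An example in the study's methods gives the opposite dye for replicate 1; Ddx3y, Uty and Xist followed the labels. Non-uniform outlier spots (0 to 10 per array) and control spots were left out and spots of a probe averaged, giving 39429 probes, of which 26055 were named through RefSeq accessions (refseq_genes on GRCm38.p6, names only). limma 3.58.1 (R 4.3.3) fitted 7 comparisons and a dye term, with 6 residual degrees of freedom. P-values were adjusted by Benjamini-Hochberg over all probes and the 7 comparisons together, and within each contrast for differences between the sexes and for 4 against 3 wk. The study's own averaging and error model were not used; its fold threshold of 1.5 was, and its p threshold was an alternative. Levels are log2 processed intensities after Aquantile normalization, averaged over the arrays of a pool; they are not compared between probes. Precision is limited by 2 arrays per comparison. The model was tested on simulated ratios.

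The labels do not name the pools. Same-numbered arrays were taken to share them, because replicate differences around the 2 loops of arrays correlated at r = 0.88 over 21650 probes, so p-values that treat arrays as independent may be too small. Replicates 1 and 2 lay on different slides, and the M8/M4, F8/F3 and F8/F4 arrays on other slides and in another scan than the rest. The genes and lists were chosen with earlier results of these data known, and the members are all named; pathway genes are named by the size of called ratios (at most 4 a comparison) or from a fixed list of 6, and some genes that the rule names are not reported here. Figures used matplotlib 3.10.9 in Python 3.11.15.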

Additional observations from a re-analysis of the deposited data

Results flagged for a closer look

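The change with age was called as different between the sexes, by a direct test of the difference (limma, Benjamini-Hochberg), for 2 of the 10 genes, where 3.36% of all genes were called from 3 to 8 wk and 1.31% from 4 to 8 wk. For Lpl the log2 ratio of males minus that of females was 0.96 from 3 to 8 wk (adjusted p = 0.013) and 1.18 from 4 to 8 wk (adjusted p = 0.013), positive in both replicates of each. For Cd36 it was -0.60 from 3 to 8 wk and -0.73 from 4 to 8 wk (limma adjusted p = 0.028 for both), negative in both replicates of each. The same 8 wk pools enter both differences, so they are not independent of each other. From 3 to 8 wk the arrays of the sexes also lay on different slides and in different scans; taken from the male over female arrays of scan 1, the differences were 1.197 and 1.27 for Lpl and -0.65 and -0.78 for Cd36. None of the 4 was called when arrays that share a pool were treated as correlated (limma adjusted p = 0.078 and 0.12 for Lpl, 0.081 and 0.12 for Cd36), and each was lost when some single arrays were left out.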

How the results depend on the processing

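Of 132 ratios of the 12 probes, 26 were called, and none of these calls changed sign under 26 alternatives each. Many alternatives leave the fitted ratio as it is and alter only its p-value or the filter, so the sign could not change under them. These are the deposited series table, the background filters, the dye term, the blocks, the shared pools and leaving out an array of another comparison. Called under every one were 10: Lpl in M8/M3, F8/F3 and F8/F4 (the dimmer probe there and in M8/M4), Fabp5 in M8/M3 and F8/F3, and Slc27a2 in M8/M3.

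Counts of called members that moved by over 1.5 times were as follows, with smaller moves given by gene, against 1 at 3 wk, 1 at 4 wk and 4 at 8 wk between the sexes, 3 in M8/M3, 2 in each other age comparison, and 2 and 2 for the differences between the sexes from 3 and from 4 to 8 wk. A replicate block gave 2 in M4/F4 (Fabp2 joined) and lost Lipg in M8/F8; it changed no other call. The fit of 6 group means, which reuses each pool as if its arrays were independent, gave 2 in M4/F4, 5 and 4 for the differences (Vldlr and Fabp5 joined both, and Lipg the first), 2 in M4/M3 and 1 in F4/F3, and gained Vldlr in M8/M4 and Lipg in F8/F4. Error-weighted averages, which rest on technical error alone, gave 2 in M4/F4, 4 in F8/F3 (Vldlr and Fabp4 joined) and 1 from 3 to 8 wk, which was Vldlr with Lpl and Cd36 lost; they gained Vldlr in the other 3 age comparisons, and from 4 to 8 wk Vldlr took the place of Cd36. Without a dye term there were 2 in M4/F4 and 1 and 1 for the differences. With normexp and loess there were 0 in M3/F3, 2 in M4/F4 and 1 from 3 to 8 wk, Slc27a2 was gained in F8/F3 and Lipg lost in M8/F8. With the slide as a block there were 0 at 3 wk and 0 at 4 wk between the sexes and 1 in F8/F4, and with shared pools as correlated also 0 and 0 for the differences; both lost Lipg in M8/F8, as did requiring all groups to be well above background. An unadjusted p below 1e-04 gave 0, 0, 2 in M8/F8, 1 in F8/F4, and 0 and 1 for the differences. Without a fold threshold there were 4 in F8/F3 and 5 in F8/F4, with Lipc joining in M8/F8 and Cd36 in M8/M3 and M8/M4. Without the arrays of M8 pool 2, an alternative chosen after seeing the data, there were 0 between the sexes at each age and in M8/M4, 1 in F8/F4, and 0 and 0 for the differences, and Fabp4 was gained in F8/F3. Taking the differences from the male over female arrays of scan 1, also chosen after seeing the data, kept 2 and 2, and the dimmer Lpl probe was then called from 3 to 8 wk. Leaving out each array in turn gave 0 to 1 in M3/F3, 0 to 2 in M4/F4, 2 to 4 in M8/F8, 3 to 3 in M8/M3, 2 to 2 in M8/M4 and F8/F3, 1 to 2 in F8/F4, 0 to 2 for each difference, and 0 to 0 in M4/M3 and F4/F3. The causes were not tested. Levels without normalization between arrays moved by more than the SD between pools in 27 of 72 cases.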
